A study of Homo sapiens with 6 samples.

Results

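The genes described here are 10 genes that FOXO transcription factors are known to raise in human or mouse cells: TXNIP, SESN3, TP53INP1, DEPP1, FBXO32, TRIM63, PIK3IP1, IRS2, RBL2 and KLF6. They were found by symbol among the array's probe sets with exactly 1 gene symbol (C10orf10 being the older name of DEPP1). All 10 were measured, each by 1 probe set, among 18417 named genes and 33297 probe sets. The genes were chosen by their differences between the siRNA groups on these same arrays, so their levels and differences are given as a description. Calls are counted for them as such, with the share of all probe sets called beside them, and support nothing.

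The study measured total RNA of U2OS cells (also written U20S in the labels), an established human osteosarcoma line grown in serum, after 2 rounds of transfection with siRNA and a harvest 4 days later. In 2 arrays the siRNA was directed against both H3.X and H3.Y (the combined knockdown), in 2 against H3.Y alone, and in 2 against luciferase, a control sequence with no target in these cells. H3.X and H3.Y are primate-specific variants of histone H3, and the comparisons ask which transcripts respond to their loss. All groups are cultures of 1 cell line. Replicates are labelled biological, with no account of what separates them, and the labels do not say whether 1 siRNA or a pool hit both variants. The spread between arrays may therefore be partly technical. Since 0 probe sets were named for the genes of H3.X and H3.Y, the depth of the knockdown was not analysed here.

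FOXO proteins sit at the end of the insulin and growth factor pathway. Receptor signalling through PI3K activates the kinase AKT, which phosphorylates FOXO and keeps it out of the nucleus. When that signal is weak, as in starved cells, FOXO enters the nucleus and raises genes that slow growth, degrade protein, handle oxidants and feed back on the pathway. Several of the 10 genes also answer to other regulators, such as TP53INP1 to p53 and TXNIP to the glucose sensor MondoA.

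RefSeq start-site windows (GRCh38.p14, 250 bases before to 50 after the start) were at hand for 8 of the 10 genes, in 11 windows. FBXO32 and TP53INP1 had no window and were not searched. FOXO proteins bind DNA around the letters GTAAACA, which were searched on both strands and stood in 3.42% of all 35116 windows. Matches lay in 1 window each of TXNIP, DEPP1 and PIK3IP1. The stretches that hold them are printed with each match in capitals. These 3 genes were all called higher in the combined knockdown than in luciferase cells. After H3.Y siRNA they lay above (TXNIP and PIK3IP1) or below (DEPP1) luciferase, and none of the 3 was called. Whether the matches bear on these levels was not tested. The TXNIP stretch also has in capitals the 2 copies of CACGAG, the E-box pair of its carbohydrate response element, where MondoA is known to act. At least 2 copies of CACGAG on the gene's strand stood in 0.0997% of all windows, and at least 1 on either strand in 6.78%.
TXNIP, chr1:145996580-145996779, minus strand: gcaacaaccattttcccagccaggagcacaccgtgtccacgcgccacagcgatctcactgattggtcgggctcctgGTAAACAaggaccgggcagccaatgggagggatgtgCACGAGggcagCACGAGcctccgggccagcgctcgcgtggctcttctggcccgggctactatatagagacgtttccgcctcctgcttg
DEPP1, chr10:44978810-44979009, minus strand: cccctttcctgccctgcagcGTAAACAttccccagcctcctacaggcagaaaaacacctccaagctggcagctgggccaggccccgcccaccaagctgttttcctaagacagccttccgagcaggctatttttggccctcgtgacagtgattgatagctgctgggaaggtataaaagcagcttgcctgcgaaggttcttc
PIK3IP1, chr22:31292455-31292483, minus strand: taaagagaggcTGTTTACcagaacagcat

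Counted from the first transcribed base as 1, the TXNIP match began at -124 and its CACGAG copies at -88 and -77. These lay before the first of its 2 starts, and the window of the second start held none of the 3 motifs. The DEPP1 match began at -180. The PIK3IP1 match lay on the other strand, so the printed letters are the reverse complement, and began at 17 after the second of its 2 starts. DEPP1 also held 1 CACGAG on the other strand at -63, which is not in capitals. The insulin response letters CAAAACA, present in 4.92% of all windows, matched only IRS2 among the 8 genes with a window, at -40 on the other strand. The windows of SESN3, RBL2, TRIM63 and KLF6 held none of the 3 motifs, which says only that these letters are not in these windows.

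**Figure D1:**
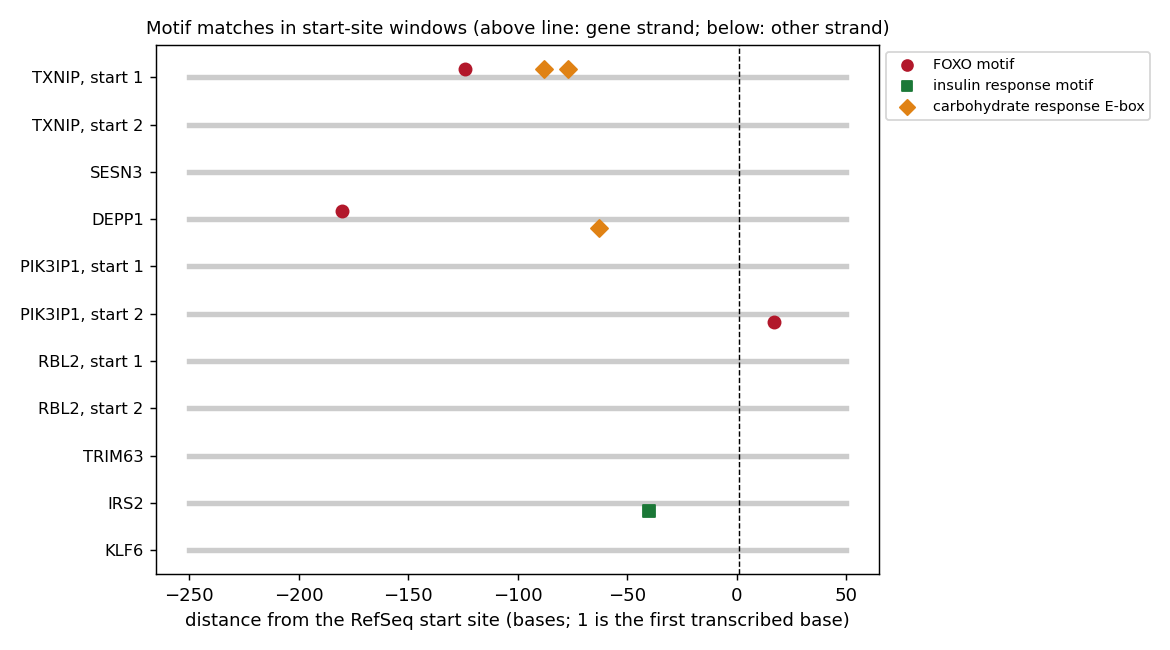
Positions of motif matches in 11 start-site windows of 8 genes; the x axis is the distance in bases from the RefSeq start, points above a line are on the gene's strand and points below it on the other strand. FOXO motif matches begin at -124 in TXNIP, -180 in DEPP1 and 17 in PIK3IP1.

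Array medians lay between 5.10 and 5.14 log2 units and lower quartiles between 3.28 and 3.40. Arrays of 1 group correlated over all probe sets with r between 0.986 and 0.992. Mesenchymal markers were present, with vimentin (VIM) between 10.69 and 10.95 and the bone matrix protein SPARC between 9.94 and 11.55, and 5 of 7 lay above the array median on every array. The leukocyte marker PTPRC lay between 1.89 and 2.29. In whole-culture RNA, fewer cells of a kind and less RNA per cell cannot be told apart.

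The largest difference was that of TXNIP, among the stress and metabolic effectors. TXNIP, which binds and inhibits thioredoxin and limits glucose uptake, read 10.84 and 10.93 log2 units in the combined knockdown, 8.25 and 8.60 after H3.Y siRNA, and 7.28 and 8.11 in luciferase cells. Both combined arrays stood far above the other 4, and both H3.Y arrays stood just above the higher luciferase array. The combined knockdown was 9.14-fold higher than luciferase (log2 3.19 ± 0.28 SE, n = 2 arrays per group) and 5.53-fold higher than H3.Y siRNA (log2 2.47 ± 0.28). After H3.Y siRNA the difference from luciferase was log2 0.73 ± 0.28. It was 0.31 without luciferase replicate 1 and 1.14 without luciferase replicate 2, the luciferase arrays having an SD of 0.59.

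SESN3, a sestrin that restrains the growth kinase mTORC1 and counters oxidants, read 8.86 and 8.99 in the combined knockdown, 6.60 and 6.26 after H3.Y siRNA, and 7.21 and 7.41 in luciferase cells. The 3 groups did not overlap, and the knockdowns lay on opposite sides of luciferase. Relative to luciferase, SESN3 was 3.07-fold higher in the combined knockdown (log2 1.62 ± 0.17) and 1.84-fold lower after H3.Y siRNA (log2 -0.88 ± 0.17). The knockdowns differed from each other by log2 2.50 ± 0.17.

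DEPP1, a FOXO-induced regulator of autophagy and peroxide handling, had the same order with a smaller dip. Its values were 7.27 and 7.09 in the combined knockdown, 5.36 and 5.25 after H3.Y siRNA, and 5.64 and 5.68 in luciferase cells. The combined knockdown exceeded luciferase 2.86-fold (log2 1.52 ± 0.14), while H3.Y siRNA differed from it by log2 -0.36 ± 0.14. Between the knockdowns the difference was log2 1.87 ± 0.14.

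TP53INP1, a p53-induced promoter of autophagy and cell death, read 7.78 and 7.58 in the combined knockdown, 6.18 and 6.36 after H3.Y siRNA, and 6.14 and 6.40 in luciferase cells. The H3.Y and luciferase arrays overlapped fully, and the combined arrays stood apart. It was 2.65-fold higher in the combined knockdown than in luciferase cells (log2 1.41 ± 0.16). After H3.Y siRNA it differed from luciferase by log2 0.00 ± 0.16, with a 95% interval of -0.38 to 0.38.

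FBXO32 and TRIM63 encode the ubiquitin ligase components atrogin-1 and MuRF1, best known from muscle wasting. FBXO32 read 7.48 and 7.64 in the combined knockdown, 7.56 and 6.93 after H3.Y siRNA, and 5.07 and 5.41 in luciferase cells. All 4 knockdown arrays lay above both luciferase arrays, and the knockdowns overlapped each other. Relative to luciferase the level was higher by log2 2.32 ± 0.24 in the combined knockdown and by log2 2.01 ± 0.24 after H3.Y siRNA. The H3.Y difference corresponds to 4.02-fold. The difference between the knockdowns was log2 0.32 ± 0.24, with a 95% interval of -0.26 to 0.89, so a modest difference either way was not resolved.

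TRIM63 lay below the array median on all 6 arrays, at 4.31 and 3.84 in the combined knockdown, 5.09 and 4.42 after H3.Y siRNA, and 4.08 and 3.94 in luciferase cells. Both H3.Y arrays were the highest, by log2 0.75 ± 0.26 over luciferase (0.41 without H3.Y replicate 1 and 1.08 without H3.Y replicate 2), and the combined arrays overlapped those of luciferase (log2 0.06 ± 0.26). Neither ligase gene was called between the knockdowns.

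**Figure D2:**
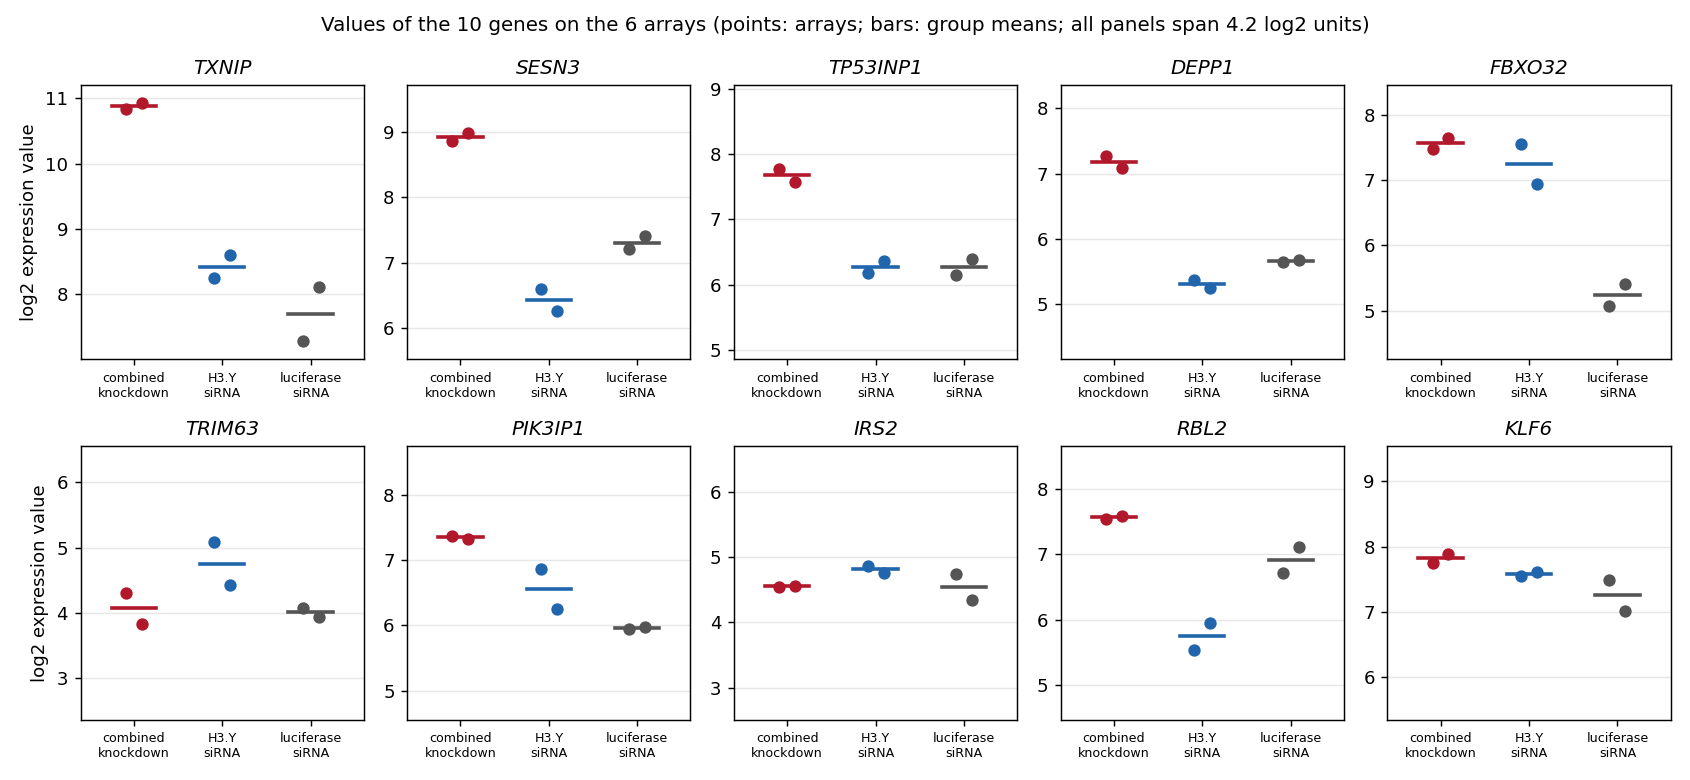
Log2 expression values (y axis) of the 10 genes in the combined knockdown, H3.Y siRNA and luciferase siRNA groups; points are arrays, bars are group means, and every panel spans the same number of log2 units. TXNIP reads 10.84 and 10.93 in the combined knockdown, while FBXO32 is high in both knockdowns and SESN3, DEPP1 and RBL2 are lowest after H3.Y siRNA.

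PIK3IP1 and IRS2 act on the pathway upstream of FOXO. PIK3IP1, a membrane protein that inhibits the catalytic subunit of PI3K, read 7.36 and 7.33 in the combined knockdown, 6.86 and 6.25 after H3.Y siRNA, and 5.94 and 5.97 in luciferase cells. The groups formed 3 steps without overlap. It was 2.62-fold higher in the combined knockdown than in luciferase cells (log2 1.39 ± 0.21). H3.Y siRNA differed from luciferase by log2 0.60 ± 0.21, and this was 0.90 without H3.Y replicate 2 and 0.30 without H3.Y replicate 1.

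IRS2, the adaptor that couples the insulin receptor to PI3K, lay below the array median on all 6 arrays. It read 4.55 and 4.56 in the combined knockdown, 4.87 and 4.75 after H3.Y siRNA, and 4.74 and 4.35 in luciferase cells. The differences from luciferase were log2 0.01 ± 0.17 in the combined knockdown and 0.27 ± 0.17 after H3.Y siRNA. The 95% interval of the difference in the combined knockdown was -0.40 to 0.41.

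RBL2 and KLF6 encode nuclear regulators. RBL2, the pocket protein p130 that holds cell cycle genes silent in resting cells, read 7.54 and 7.59 in the combined knockdown, 5.54 and 5.95 after H3.Y siRNA, and 6.71 and 7.11 in luciferase cells. As for SESN3, the knockdowns stood on opposite sides of luciferase. The combined knockdown was higher by log2 0.66 ± 0.20 and H3.Y siRNA was 2.24-fold lower (log2 -1.17 ± 0.20), which put the knockdowns 3.54-fold apart (log2 1.82 ± 0.20).

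KLF6, a zinc finger transcription factor, varied least among the genes above the array median. Its values were 7.76 and 7.89 in the combined knockdown, 7.55 and 7.61 after H3.Y siRNA, and 7.50 and 7.01 in luciferase cells. It differed from luciferase by log2 0.57 ± 0.19 in the combined knockdown and by 0.33 ± 0.19 after H3.Y siRNA. Without luciferase replicate 1 the differences were 0.81 in the combined knockdown and 0.57 after H3.Y siRNA, and without luciferase replicate 2 they were 0.32 in the combined knockdown and 0.08 after H3.Y siRNA.

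Counted over the 10 genes, limma called 6 higher and 0 lower in the combined knockdown relative to luciferase (TXNIP, FBXO32, SESN3, DEPP1, TP53INP1 and PIK3IP1). Calls required a Benjamini-Hochberg adjusted p under 0.05 over all probe sets on the array, and 0.859% of all probe sets were called higher and 0.985% lower. In that comparison both combined arrays exceeded both luciferase arrays for 8 of the 10 genes, as for 23.4% of all probe sets, and lay below them for 0, against 24% of all. The median difference was log2 1.40 over the 10 genes and 0.00 over all probe sets. Nothing is read from these shares, since the genes were proposed from this comparison. Without any 1 luciferase or combined array none of the 6 calls was kept, and no other probe set was called. TXNIP then differed by log2 2.78 to 3.61. The other 5 kept their direction, which groups without overlap must when 1 array is left out.

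After H3.Y siRNA, FBXO32 was the 1 gene of the 10 called, while 0.0841% of all probe sets were called higher and 0.195% lower. Both H3.Y arrays exceeded both luciferase arrays for 6 of the 10 (21.7% of all probe sets) and lay below them for SESN3, DEPP1 and RBL2 (20% of all). The median difference was log2 0.30 over the 10 and 0.02 over all probe sets. The FBXO32 call was lost in a fit of only the 4 arrays compared and in a fit with a replicate block. It was also lost without either luciferase array and without H3.Y replicate 1. Leaving out 1 combined array repeats the fit of only the 4 arrays, and is no further loss. In these fits the differences were log2 1.69 to 2.18. Without H3.Y replicate 2 the call was kept, at log2 2.32. Both comparisons share the luciferase arrays, so their values are set side by side only.

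Between the knockdowns, TXNIP, SESN3, DEPP1, TP53INP1 and RBL2 were called higher in the combined knockdown than after H3.Y siRNA, and 0 were called lower. Over all probe sets, 2.74% were called higher and 1.92% lower. The combined arrays lay wholly above the H3.Y arrays for 7 of the 10 (21.2% of all probe sets) and wholly below for TRIM63 and IRS2 (25.4% of all), with FBXO32 overlapping. The median difference was log2 1.10 over the 10 genes and -0.03 over all probe sets. Without combined replicate 1 none of the 5 was called, and without combined replicate 2 only SESN3 and DEPP1 were. The TXNIP call was also lost without H3.Y replicate 1, at log2 2.29. PIK3IP1, called against luciferase, was not called here in the main fit. It was called without H3.Y replicate 1, at log2 1.09. A fit of only probe sets with a mean of at least 5 log2 units called PIK3IP1 too, with 6 of the 10 called. The lower values of SESN3, DEPP1 and RBL2 after H3.Y siRNA and the higher value of RBL2 in the combined knockdown were not called against luciferase. TRIM63, IRS2 and KLF6 were called in no comparison.

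**Figure D3:**
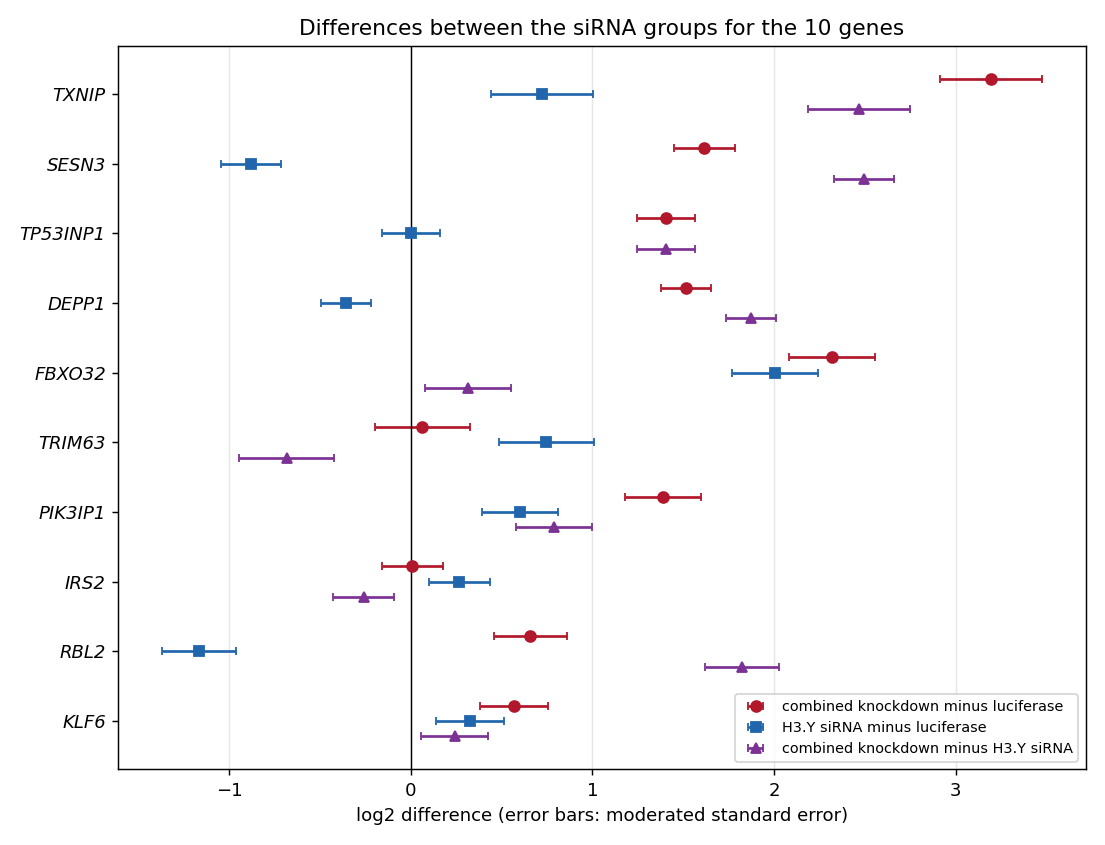
Log2 differences (x axis) with moderated standard errors for the 10 genes, as combined knockdown minus luciferase (circles), H3.Y siRNA minus luciferase (squares) and combined knockdown minus H3.Y siRNA (triangles). FBXO32 lies near 2 in both comparisons with luciferase, and SESN3 lies at 1.62 and -0.88.

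The FOXO genes themselves were among the genes read alongside. FOXO1 read 7.18 and 7.06 in the combined knockdown, 7.12 and 6.94 after H3.Y siRNA, and 6.96 and 6.67 in luciferase cells. FOXO3 read 4.47 and 4.71 in the combined knockdown, 4.69 and 4.81 after H3.Y siRNA, and 4.76 and 4.73 in luciferase cells, and its H3.Y and luciferase arrays overlapped. FOXO4 read 6.53 and 6.46 in the combined knockdown, 6.81 and 6.59 after H3.Y siRNA, and 6.16 and 6.15 in luciferase cells. Limma called 0 of the 3 in any comparison, with differences from log2 -0.20 to 0.54. FOXO4 had an unadjusted p under 0.05 in both comparisons with luciferase, where all knockdown arrays lay above luciferase. Transcript levels do not report where the proteins are.

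Other FOXO targets, listed from general knowledge but with earlier results of these data known, gave 34 measured genes. In the combined knockdown 1 rose and 1 fell relative to luciferase, 29 had a positive difference and 14 had an unadjusted p under 0.05. Over all probe sets 50.2% had a positive difference and 15.3% an unadjusted p under 0.05 in that comparison, against 53.4% and 13.9% after H3.Y siRNA and 45.6% and 19% between the knockdowns. CDKN1A, the CDK inhibitor p21 and also a p53 target, rose by log2 1.03 ± 0.16 (limma adjusted p = 0.040). BNIP3, a mitophagy receptor that hypoxia also induces, fell by log2 -1.32 ± 0.14 (adjusted p = 0.018). The list's median was log2 0.17 in the combined knockdown and 0.22 after H3.Y siRNA, where 0 of the 34 passed and 12 had an unadjusted p under 0.05. Between the knockdowns 10 had an unadjusted p under 0.05. There the receptor kinase ERBB3 was higher by log2 1.16 ± 0.13 (adjusted p = 0.012) and BNIP3 lower by log2 -0.77 ± 0.14 (adjusted p = 0.037) in the combined knockdown.

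Insulin and PI3K-AKT signalling genes numbered 26. In the combined knockdown 2 rose relative to luciferase and 0 fell (8 at an unadjusted p under 0.05). After H3.Y siRNA 0 passed (2 at an unadjusted p under 0.05). Between the knockdowns 3 were higher and 0 lower in the combined knockdown (6 at an unadjusted p under 0.05). SGK1, a kinase related to AKT that also phosphorylates FOXO, read 7.87 and 7.67 in the combined knockdown, 6.46 and 6.04 after H3.Y siRNA, and 6.34 and 5.99 in luciferase cells. It rose relative to luciferase (adjusted p = 0.0253), with a fitted log2 difference of 1.60 ± 0.20, and stood log2 1.52 ± 0.20 over H3.Y siRNA (adjusted p = 0.017). AKT2 rose by log2 0.89 ± 0.13 over luciferase (adjusted p = 0.0297). Between the knockdowns the receptor IGF1R was higher by log2 0.99 ± 0.16 (adjusted p = 0.0272), and by log2 2.08 ± 0.19 on its second probe set (adjusted p = 0.00728). The PI3K regulatory subunit PIK3R1 was higher by log2 0.87 ± 0.16 (adjusted p = 0.0384). That second probe set of IGF1R also passed against luciferase, at log2 1.50 ± 0.19 (adjusted p = 0.0255), where the first gave 0.82 ± 0.16 (adjusted p = 0.067). The list's median was log2 0.17 in the combined knockdown and 0.12 after H3.Y siRNA.

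Family relatives of the 10 genes were read on 21 probe sets, and 1 passed against luciferase. RB1, the retinoblastoma protein and a relative of RBL2, fell by log2 -1.23 ± 0.15 in the combined knockdown (adjusted p = 0.023), with values of 6.66 and 6.74, against 7.83 and 8.02 in luciferase cells. After H3.Y siRNA 0 of the 21 passed. At an unadjusted p under 0.05 there were 6 after H3.Y siRNA, 5 in the combined knockdown relative to luciferase and 7 between the knockdowns. Between the knockdowns ARRDC3, an arrestin-like relative of TXNIP, was lower by log2 -1.16 ± 0.22 (adjusted p = 0.041), and KLF5 was higher by log2 0.83 ± 0.17 (adjusted p = 0.0465). ARRDC4, the relative of TXNIP that MondoA also drives, was picked out after its values were seen. It read 7.49 and 7.45 in the combined knockdown, 8.22 and 7.36 after H3.Y siRNA, and 6.02 and 6.30 in luciferase cells, and it missed the threshold in each comparison. Its knockdown arrays all lay above luciferase and overlapped each other, an arrangement nearer to that of FBXO32 than to that of TXNIP.

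Of all probe sets, 0.859% were called higher and 0.985% lower in the combined knockdown relative to luciferase. With all arrays, 5 of the 102 genes of all 6 pathway lists passed in that comparison, 3 higher and 2 lower. Without any 1 luciferase or combined array none did. Between the knockdowns 6 of the 102 were called higher and 3 lower, against 2.74% and 1.92% of all probe sets. The luciferase arrays enter this comparison only through the estimate of the spread, which the groups share. Without either of them the fit was that of only the 4 arrays compared, which called 4 genes in place of these 9. Fewer than these 9 were also called without 1 of the H3.Y arrays, and none without 1 of the combined arrays.

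**Figure D4:**
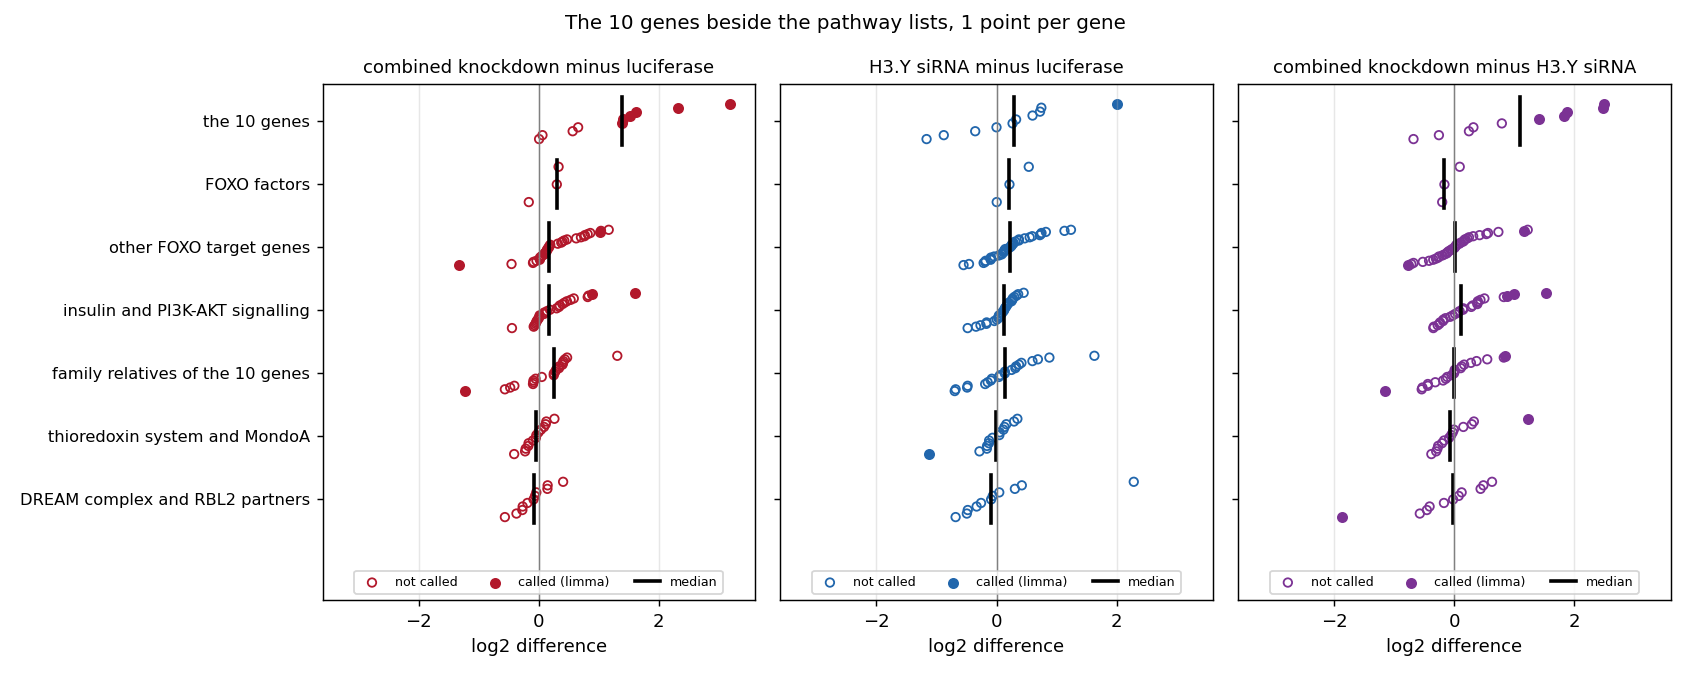
Log2 differences (x axis) of the 10 genes and of the members of 6 pathway lists in 3 comparisons; filled points were called by limma, open points were not, and black bars are medians. In the combined knockdown the 10 genes have a median of 1.40, and the other FOXO targets one of 0.17.

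The named probe sets most like TXNIP over the 6 arrays, among 2066 with a mean of at least 5 and a range of at least 1 log2 unit, were those of UNC13B (Pearson r = 0.995), SVIL (0.991), SLC35F5 (0.990), ELF1 (0.988) and PDE5A (0.987). Most of each r comes from the gap between the combined arrays and the other 4. PDE5A, a phosphodiesterase of cyclic GMP, read 6.83 and 6.64 in the combined knockdown, 4.60 and 4.90 after H3.Y siRNA, and 4.32 and 4.52 in luciferase cells. Those most like FBXO32 were ZFYVE26 (0.978), ZFYVE1 (0.974), HERPUD2 (0.968), ADAM19 (0.965) and MARCHF3 (0.965). MARCHF3, a membrane-bound ubiquitin ligase, read 7.66 and 7.68 in the combined knockdown, 7.19 and 6.92 after H3.Y siRNA, and 5.40 and 6.12 in luciferase cells.

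Skeletal muscle markers were read because FBXO32 and TRIM63 are best known from that tissue. Of 12 measured, 0 passed in any comparison. At an unadjusted p under 0.05 there were 2 after H3.Y siRNA, 0 in the combined knockdown relative to luciferase and 1 between the knockdowns. On every array 7 lay below the array median and 4 above it. Among the low ones, MYOD1 lay between 3.72 and 4.33 and MYL1 between 2.95 and 3.11, which do not stand for the 4 above the median. The summed log2 levels of the 12 were 57.1 and 56.3 in the combined knockdown, 55.7 and 55.4 after H3.Y siRNA, and 56.8 and 54.7 in luciferase cells. Of 5 epithelial markers, EPCAM rose in the combined knockdown relative to luciferase by log2 2.25 ± 0.18 (adjusted p = 0.0129), and by 2.73 on its second probe set. Between the knockdowns 2 of the 5 were called higher in the combined knockdown. KRT5 stayed between 3.89 and 4.28, and KRT18 lay between 9.73 and 10.93 on its probe set with the higher mean. In the combined knockdown the 5 differences from luciferase ran from log2 0.00 to the 2.25 of EPCAM, with a median of 0.59. EPCAM therefore weighs most in the rise of their sum. The summed epithelial levels were 33.5 and 33.3 in the combined knockdown, 27.4 and 28.1 after H3.Y siRNA, and 30.0 and 29.5 in luciferase cells, an order shared with SESN3, DEPP1 and RBL2. COL1A1, a bone matrix collagen, had that order too, at 10.73 and 10.42 in the combined knockdown, 8.33 and 8.62 after H3.Y siRNA, and 9.06 and 8.93 in luciferase cells. It rose in the combined knockdown by log2 1.58 ± 0.17 (adjusted p = 0.0191). The part of these markers in the values of the 10 genes was not tested. Of 5 blood and 5 fat cell markers, 0 passed in any comparison, also at an unadjusted p under 0.05, and 4 of each lay below the array median on every array.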

How the data were processed

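Per the submitters' processing notes the authors used oligo on the 6 arrays, and they deposited log2 expression values per probe set. Not given in the sources used here were how background was corrected, how probes were summarised, oligo's version and any build. That the scale is log2 was judged from the range of the values (0.687 to 14.0). They were used without further normalization, and 0 value columns were left unused. Scaling arrays alike hides any change that moves all transcripts together. Probe sets were named from the platform annotation. For 19429 of 19460 with 1 symbol the Entrez ID was found in RefSeq (GRCh38.p14). The RefSeq symbol was then used, whether or not it differed.

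Groups were compared with limma 3.58.1 in R 4.3.3 (lmFit and eBayes, 1 mean per group over all 6 arrays, 3 residual and 3.43 prior degrees of freedom), with two-sided p-values and Benjamini-Hochberg adjustment across the 33297 probe sets of each comparison. Standard errors and 95% intervals are those of the moderated fit. The number of arrays limits the precision. The procedure was tested on simulated data. Pathway lists used 1 probe set per gene, the one with the highest mean. Named from each list were up to 4 called members with the smallest p or, where none was called, up to 3 with the largest differences. The 10 genes and the lists were chosen with earlier results of these data known. The 12 alternatives were leaving out each array, a filter on low values, an intensity trend with robust prior, median centring, renewed quantile normalization, fitting only the 4 arrays compared, and a replicate block. Where the array left out was of the group not compared, the fit was the same as that of only the 4 arrays compared. Motifs were searched with Python 3.11.15 in RefSeq windows.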

Additional observations from a re-analysis of the deposited data

How the results depend on the processing

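No called difference of the 10 genes reversed under the 12 alternatives, of which the filter on low values removed TRIM63 and IRS2. For each called difference the arrays of the 2 groups did not overlap. Leaving out 1 array could therefore not reverse it, and the kept direction says nothing of stability there. The block, the 4-array fit, the filter and the trend leave a difference as it is by construction, and with 2 arrays a group leaving out 1 moves a mean by less than the SD whatever the data, so sizes say nothing of stability there. After H3.Y siRNA, 93 probe sets were called. This became 0 with only the 4 arrays compared (3709 at an unadjusted p under 0.05), 541 with probe sets of a mean of at least 5, 209 with an intensity trend and robust prior, and 0 to 629 leaving out 1 array. With the replicate block there were 68. Of the 10 genes 1 was called, 0 with the replicate block or with only the 4 arrays, 3 with the filter (FBXO32, SESN3 and RBL2) and 0 to 1 leaving out 1 array. Of the pathway genes 1 was called, 0 with only the 4 arrays, 2 with median centring and with the trend, 5 with the filter and 0 to 7 leaving out 1 array.

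For the combined knockdown against luciferase, 614 probe sets were called, 1389 with the filter, 924 with the trend, 750 with the replicate block and 0 to 644 leaving out 1 array. Of the 10 genes 6 were called in every alternative that kept all arrays of both groups, and 0 to 6 leaving out 1. Pathway genes numbered 5, 10 with the filter and 0 to 5 leaving out 1. Between the knockdowns 1554 were called, 448 with only the 4 arrays, 2540 with the filter and 12 to 1641 leaving out 1. Of the 10 genes 5 were called and 0 to 5 leaving out 1, and pathway genes numbered 9, 4 with only the 4 arrays, 14 with the filter and 0 to 5 leaving out 1. The filter tests fewer probe sets, and leaving out arrays lowers the residual degrees of freedom. Other causes were not tested.

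The labels do not say that equal replicate numbers share a culture or day, and each group holds 2 arrays. Deviations of same-numbered arrays from their group means correlated over probe sets at 0.12 to 0.28.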

Other observations

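The thioredoxin system and MondoA genes, which surround TXNIP, numbered 14 measured. PRDX3, the mitochondrial peroxiredoxin, read 10.95 and 10.86 in the combined knockdown, 9.69 and 9.68 after H3.Y siRNA, and 10.79 and 10.84 in luciferase cells. It fell by log2 -1.13 ± 0.13 after H3.Y siRNA (limma adjusted p = 0.0377) and was higher by log2 1.22 ± 0.13 in the combined knockdown than after H3.Y siRNA (adjusted p = 0.00942). The other 13 genes passed in no comparison. The call after H3.Y siRNA was lost in a fit of only the 4 arrays compared, which leaving out 1 combined array repeats. It was also lost without either luciferase array and without H3.Y replicate 1. The target of TXNIP, thioredoxin (TXN), read 9.48 and 9.54 in the combined knockdown, 9.67 and 9.53 after H3.Y siRNA, and 9.63 and 9.83 in luciferase cells. The list's median was log2 -0.04 in the combined knockdown and -0.01 after H3.Y siRNA.

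Partners of RBL2 in the DREAM complex, which represses cell cycle genes in resting cells, numbered 11. Between the knockdowns E2F5 was lower by log2 -1.88 ± 0.30 in the combined knockdown (adjusted p = 0.0266), with values of 5.18 and 5.18, against 6.69 and 7.43 after H3.Y siRNA and 4.45 and 5.10 in luciferase cells. The other 10 genes passed in no comparison. After H3.Y siRNA E2F5 was thus at its highest and RBL2 at its lowest of the 3 groups. In the combined knockdown the arrays of both lay above those of luciferase. Neither gene was called against luciferase.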
